A study of Sus scrofa with 4 samples.

Results

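The secreted WNT antagonists described here are the 9 genes DKK1, DKK2, DKK3, SFRP1, SFRP2, SFRP4, SFRP5, WIF1 and NOTUM, taken by symbol from the 20648 genes in the deposited count matrices. All 9 were found in the matrices. They were measured by droplet single-cell RNA sequencing of regenerated bone from Bama mini-pigs, a small pig breed, aged 8 months. Both groups received a peptide: 2 libraries came from the group given the peptide coded 1797 and 2 from the group given a control peptide. The labels name no sequence, dose or time for either peptide, and they do not say whether libraries came from separate animals. The p-values below thus measure only the spread between these libraries, which may be technical.

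WNT proteins are secreted signals that bind Frizzled receptors together with the co-receptors LRP5 and LRP6, and in bone they promote osteoblast formation. Secreted antagonists act outside the cell. SFRP proteins carry a Frizzled-like domain and WIF1 has a WIF domain, and both kinds bind WNT directly. DKK1 and DKK2 bind LRP5 and LRP6, DKK3 is a divergent relative whose role in WNT signalling is less clear, and NOTUM is an enzyme that removes the lipid that WNT needs for its activity.

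On the Sscrofa11.1 build, in RefSeq coordinates counted from 1, SFRP1 lies on chromosome 17 from 10436414 to 10489773 and SFRP2 on chromosome 8 from 75337311 to 75345926. SFRP4 lies on chromosome 9 from 108404314 to 108414335 and SFRP5 on chromosome 14 from 109120382 to 109125655. DKK1 is also on chromosome 14, from 97487854 to 97490118, while DKK2 is on chromosome 8 from 114862056 to 114974327 and DKK3 on chromosome 2 from 47385244 to 47444664. WIF1 spans 29450442 to 29543913 on chromosome 5, and NOTUM 1033814 to 1044412 on chromosome 12. All 9 are annotated as protein-coding genes.

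The 4 libraries held 87844389 to 98758412 UMIs (unique molecular identifiers, each standing for 1 captured transcript) and 11466 to 12765 cells after filtering, 49137 in all. Any pair of libraries shared 42 to 63 cell barcodes, at most 0.451% of a library. Library 1 of the 1797 group stood apart in holding 1159 barcodes with fewer than 200 genes, where the other 3 held 55 to 309. Mesenchymal cells, the pool of clusters named at the first clustering by stromal, bone, cartilage or mural markers, were 1219 cells. Their number was uneven, with 686 and 74 for peptide 1797 against 136 and 323 for the control peptide. A shallow cluster of 620 cells, led by ACTA2 and TPM1, was nearest to fibroblast-like stromal cells but stayed unnamed. It was left out of the pool, and control library 1 supplied 249 of its cells. Counts given as outside the mesenchymal cells thus include this cluster. Class names below mean clusters that carry the markers of that type. The 9 genes were not among the genes used for clustering. Levels are given as CPM, the UMIs of a gene scaled to the total of all genes in that class and library. Levels across cell types are a description with no test.

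**Figure D1:**
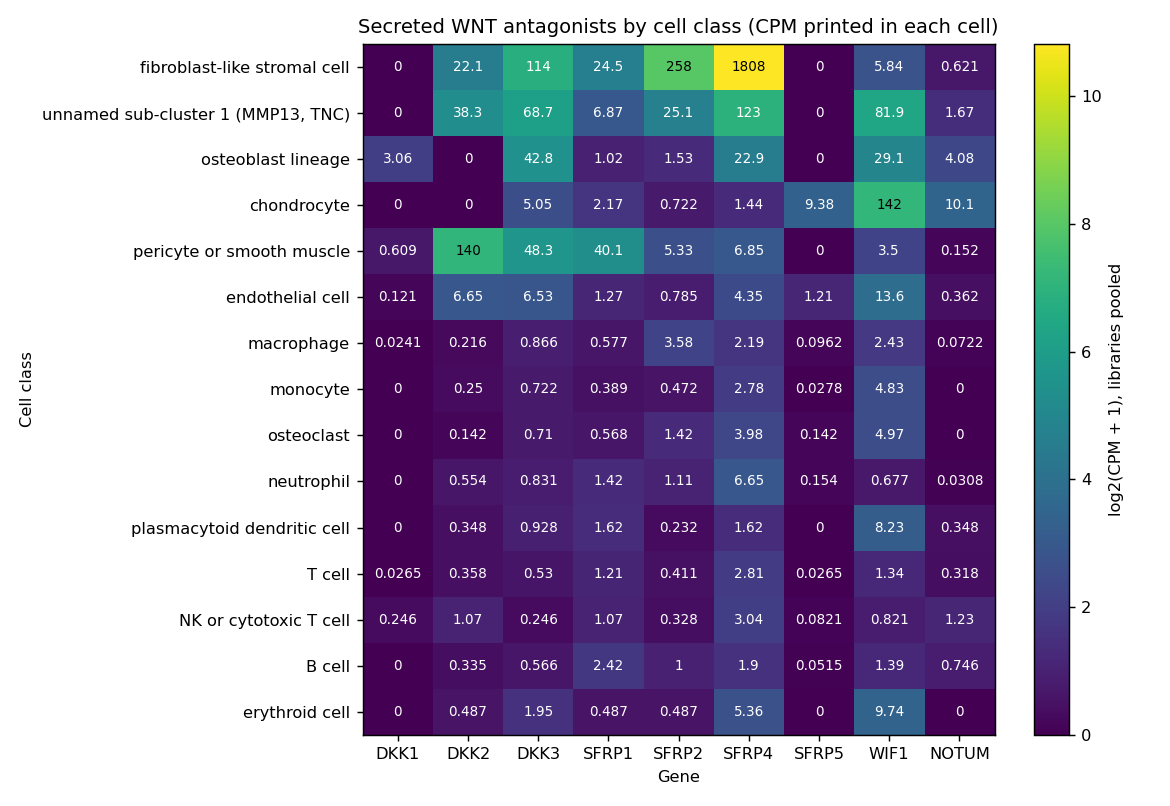
Level of the 9 genes (columns) in 15 cell classes (rows), libraries pooled. Colour is log2(CPM + 1) and the printed value is CPM. Among these classes SFRP4 and SFRP2 peak in fibroblast-like stromal cells, DKK2 and SFRP1 in pericytes or smooth muscle, and WIF1, NOTUM and SFRP5 in chondrocytes.

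SFRP4, a WNT-binding antagonist known for its effect on bone thickness, was concentrated in a small stromal population. Of its 17962 UMIs, 93.0% lay in mesenchymal cells and 81.0% in the 186 fibroblast-like stromal cells, and 21 cells held 50% of them. In that stromal class SFRP4 stood at 1619 and 1783 CPM in the 1797 libraries and at 341 and 1881 CPM in the control libraries. The low value rests on 2 cells and 13 UMIs, and the other 3 libraries lay close together. The class had 65 and 5 cells for peptide 1797 against 2 and 114 for the control peptide. Its cells carried PDGFRA, LUM, COL6A3 and POSTN, all higher than in osteoblast-lineage cells. The fibroblast markers DCN and DPT, at 1214 and 34.7 CPM, were lower than the 1801 and 391 CPM there. PI16 and MFAP5, also fibroblast markers, were near 0, at 0.4 and 0.2 CPM. The class also carried IBSP, a bone matrix gene, at 3632 CPM and the osteoblast marker RUNX2 at 2248 CPM. Osteoblast-lineage cells had these at 11414 and 2672 CPM, and BGLAP, another osteoblast marker, at 2851 CPM against 2.36 CPM here. A shallow unnamed sub-cluster of 23 cells, all from 1797 library 1 and with a median of 1204 UMIs, had a higher SFRP4 level of 3944 CPM.

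SFRP2, a family member often linked to fibroblasts, had 2638 of its 2999 UMIs in mesenchymal cells, and 9 cells held 50% of them. Its level in fibroblast-like stromal cells was 35.6 and 37.1 CPM in the 1797 libraries, and 0 and 342 CPM in the control libraries. Control library 2 thus held most of the SFRP2 counts, 2400 of 2999. When the mesenchymal cells were divided more finely, SFRP2 and SFRP4 parted. One sub-cluster of 28 cells, 24 of them from control library 2, held 1883 SFRP2 UMIs at 1210 CPM, with SFRP4 at 86.8 CPM. Another, of 145 cells led by SFRP4, PTN and IBSP, had SFRP4 at 2290 CPM and SFRP2 at 29.4 CPM, and at this division it no longer met the rule for a fibroblast-like name.

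**Figure D2:**
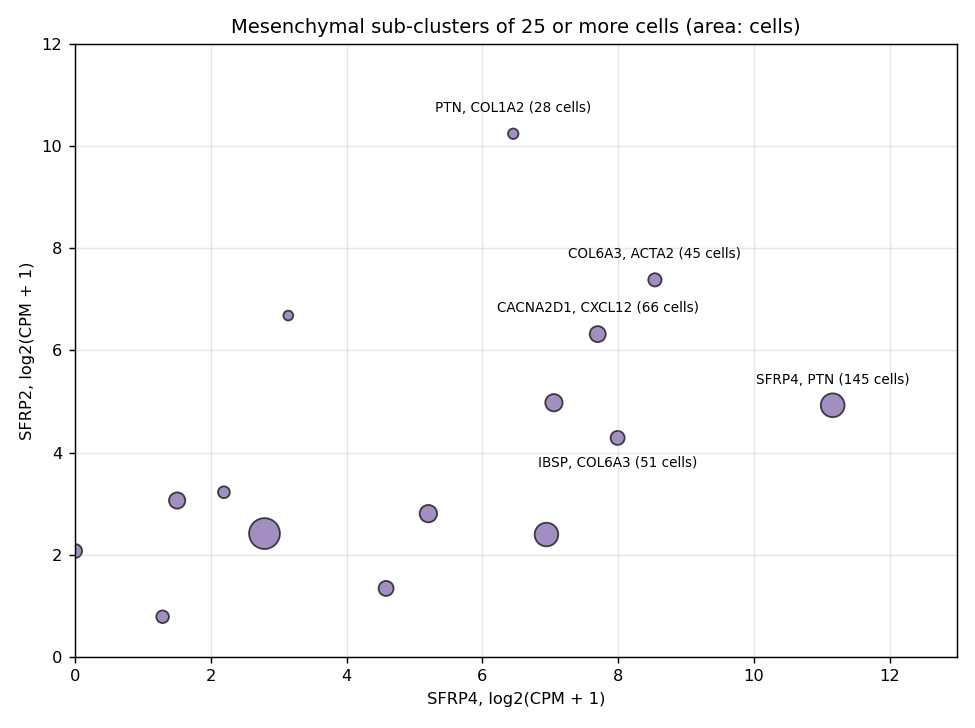
SFRP4 (x axis) against SFRP2 (y axis), both log2(CPM + 1), in the finer mesenchymal sub-clusters of 25 or more cells. Each circle is a sub-cluster with its area set by its cell number, and its leading genes are given where a gene is high. The 28-cell sub-cluster is highest for SFRP2 and the 145-cell sub-cluster for SFRP4.

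SFRP1 was highest among the named classes in pericytes or smooth muscle, the mural cells of vessels. There its level was 33.4 and 32.7 CPM in the 1797 libraries and 24.5 and 58.8 CPM in the control libraries, and the groups overlapped. At the finer division the 28-cell sub-cluster rich in SFRP2 was higher, with SFRP1 at 123 CPM and 191 UMIs, 185 of them from control library 2, against at most 45.1 CPM in the mural sub-clusters. Mesenchymal cells held 56.8% of its 956 UMIs, and B cells another 94 UMIs at 1.68 and 1.63 CPM in the 1797 libraries against 2.67 and 4.26 CPM in the control libraries. SFRP5 was close to the limit of detection, with 55 UMIs in 35 cells. Of these, 13 UMIs were in chondrocytes and 20 in endothelial cells, 19 of the latter from control library 2.

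DKK2, a ligand of LRP5 and LRP6, was highest in pericytes or smooth muscle. Its level there was 78.3 and 4.09 CPM in the 1797 libraries and 184 and 295 CPM in the control libraries. Of these libraries, 1797 library 2 and control library 1 had 16 mural cells each, with 1 and 45 DKK2 UMIs, and 43 of those 45 lay in 1 cell. The order of the groups thus rests on that cell. A single cell held up to 106 DKK2 UMIs, and 23 cells held 50% of the gene's 1647 UMIs. No DKK2 UMI was counted in the 58 osteoblast-lineage cells or the 41 chondrocytes, which allows up to 1.53 and 2.17 CPM.

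For DKK3, 112 cells held 50% of its 2375 UMIs, more than for the other 8 genes, and 109 of the 112 were mesenchymal. That number depends on how many cells have a count, which was 770 for DKK3. SFRP1 was counted in 544 cells, of which 101 held 50% of its UMIs, and SFRP4 in 1458. DKK3 stood at 93.8 and 59.3 CPM in stromal cells of the 1797 libraries and at 78.8 and 123 CPM in those of the control libraries. In osteoblast-lineage cells it was 60.1 and 62.6 CPM against 31.1 and 44.97 CPM, and in the mural cells 53.3 and 40.9 CPM against 20.4 and 41.2 CPM. The osteoblast-lineage values come from 19, 4, 28 and 7 cells. They rest on 7 UMIs in 1797 library 2 and 13 in control library 2, from 2 cells each. Neither class had enough cells in every library to be tested. Chondrocytes were lower, at 5.05 CPM over all libraries. At least 1 DKK3 UMI was counted in 80.6% of stromal cells, against 0.154% to 0.991% of T cells across the libraries, which should lack the gene. Median depth was 44361 UMIs in the stromal class and 7106.5 in T cells.

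DKK1, a soluble inhibitor well known in bone, was almost undetected: 27 UMIs in 20 cells. Osteoblast-lineage cells held 6 of these, 5 of them in 1 cell of 1797 library 2. At this depth no pattern over cell types can be read from it.

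WIF1 had a different distribution. Chondrocytes were highest, at 85.3 and 170 CPM in the 1797 libraries and 99.4 and 361 CPM in the control libraries, from 23, 13, 1 and 4 cells. It was next in 2 mesenchymal sub-clusters without a type name: one of 24 cells led by FN1 and BGN, at 115 CPM, and one of 194 cells led by MMP13 and TNC, at 81.9 CPM. In osteoblast-lineage cells it was 33.8 and 62.6 CPM against 18.5 and 44.97 CPM. These ranges overlap between the groups, and the neighbours in this order overlap as well.

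Outside the mesenchymal cells WIF1 was counted in every library in each tested class but erythroid cells. Those had 0 and 10.8 CPM in the 1797 libraries and 15.5 and 7.15 CPM in the control libraries, from at most 12 UMIs a library. Endothelial cells had 12.6 and 21.3 CPM in the 1797 libraries and 13.02 and 13.9 CPM in the control libraries. Plasmacytoid dendritic cells had 11.3 and 8.61 CPM against 8.26 and 4.70 CPM, and monocytes 5.10 and 3.22 CPM against 4.20 and 7.02 CPM. Osteoclasts had 5.98 and 5.06 CPM against 8.75 and 2.37 CPM, from 4 to 16 UMIs a library. T cells were lower, at 0.95 to 2.00 CPM, and macrophages had 1.63 and 2.34 CPM against 2.00 and 4.56 CPM. Monocytes held 174 WIF1 UMIs in 80 cells, up to 13 in a cell.

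NOTUM was sparse, with 137 UMIs in 117 cells. Chondrocytes had 4 and 10 UMIs in the 1797 libraries and 0 in both control libraries, where only 1 and 4 such cells were present. Osteoblast-lineage cells had 8 UMIs, 7 of them in 1797 library 1. B cells held 29 and T cells 24 UMIs. In all, 67.2% of the gene's counts lay outside the mesenchymal pool, which leaves out the shallow unnamed cluster of 620 cells.

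**Figure D3:**
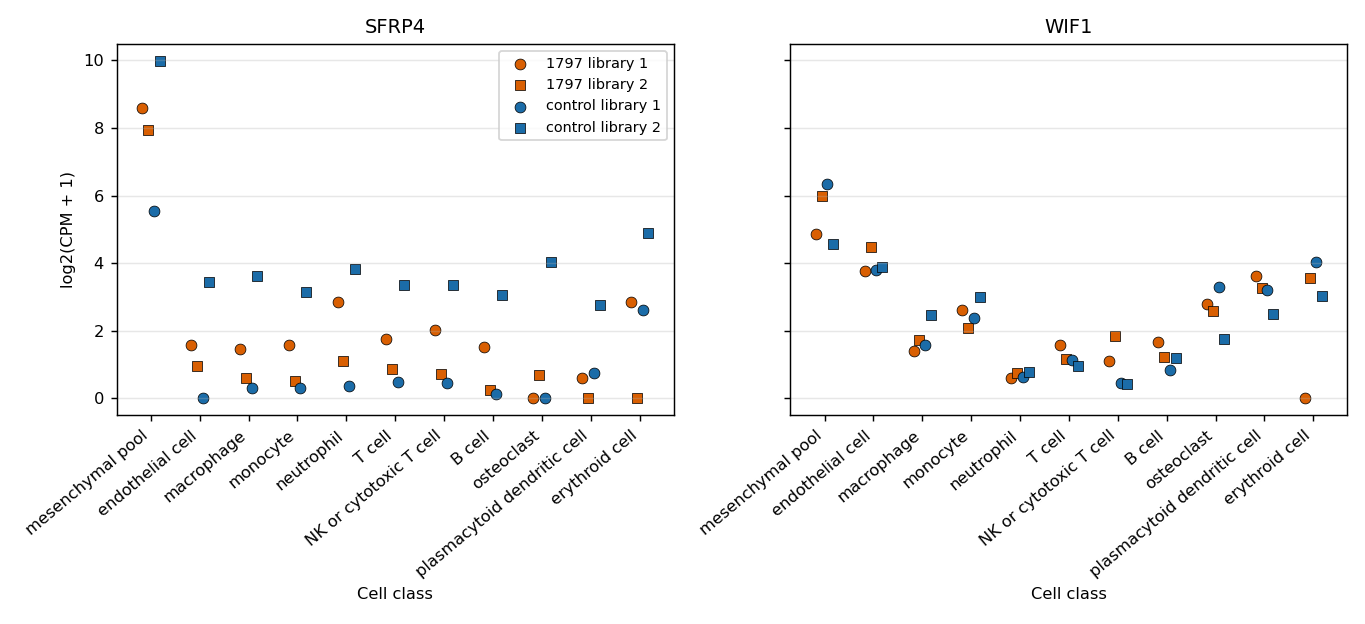
SFRP4 (left) and WIF1 (right) in the mesenchymal pool and the 10 tested classes outside it, y axis log2(CPM + 1). Each point is a library, orange for peptide 1797 and blue for control, circles for library 1 and squares for library 2. For SFRP4 the pool and 7 of the 10 classes share one order of libraries, with control library 2 highest and control library 1 lowest, and erythroid cells, osteoclasts and plasmacytoid dendritic cells do not.

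Low SFRP4 counts in blood and immune cells followed the library. In T cells the level was 2.41 and 0.82 CPM in the 1797 libraries and 0.41 and 9.26 CPM in the control libraries, the order seen over all cells (57.0, 6.12, 1.87 and 133 CPM). The same order was found in 7 of the 10 tested classes outside the mesenchymal pool. The values in immune classes moved with the library total, and the part of free RNA in them was not tested.

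SFRP2 in macrophages did not follow that order. It was at 2.33 and 5.75 CPM in the 1797 libraries and at 1.53 and 1.40 CPM in the control libraries, and 8.01% of macrophages of 1797 library 2 had a UMI, against 1.01% to 2.05% in the others. T cells of that library had a UMI in 0.084%. In macrophages of 1797 library 2 there were 108 SFRP2 and 10 SFRP4 UMIs, against 29 and 506 in its mesenchymal cells. Of the 149 UMIs, 148 lay in one of the class's 2 clusters, which held 327 and 525 of the 1797 libraries' macrophages and 398 and 186 of the control libraries'. That cluster had a median of 23758 UMIs per cell, the other 821.

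The genes were often counted in the same mesenchymal cell. Of the 1219 cells, 866 had a UMI of at least 1 of the 9 genes and 492 of at least 2. DKK3 was counted in 64.2% of the 400 cells with SFRP4 and in 29.2% of the other mesenchymal cells. SFRP1 was counted in 24.0% of the 171 cells with DKK2 and in 12.8% of the rest. Such pairs share the depth of the cell, so these are descriptions only.

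Over 42 class means of log2(CPM + 1), the gene most like SFRP4 was PON1 (Pearson r = 0.902), followed by PODNL1, EPDR1, KCNK2 and LUM. All 5 of these were highest in the shallow sub-cluster of 23 cells, which came only from 1797 library 1. SFRP2 was most like PODNL1 (r = 0.863), and COL3A1, a fibrillar collagen, was among its 5. For DKK3 it was VGLL3 (r = 0.938), for DKK2 NHSL2 (r = 0.872) and for SFRP1 RGS7BP (r = 0.816). WIF1 was most like SOX9 (r = 0.864), the regulator of cartilage formation. The classes share libraries and differ in depth, and 14594 genes were compared.

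The comparison of the peptides asks whether these genes differed in the tissue given peptide 1797. In the sum of all cells, 8 of the 9 genes passed the filter on low counts, all but DKK1, and edgeR's quasi-likelihood test with Benjamini-Hochberg adjustment called 0 of them at an adjusted p of 0.05, against 0% of all 16654 genes. None had an unadjusted p under 0.05 (1.59% of genes did), and DESeq2 called 0 as well (0.126% of genes). Of the 8, 2 were higher and 6 lower, with a median log2 fold change of -0.40 against -0.02 over all genes. In such sums, fewer cells of a type and less RNA per cell cannot be told apart.

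The spread within groups was wide. SFRP4 over all cells differed 9.3-fold between the 1797 libraries and 71.3-fold between the control libraries, while the group means differed 2.15-fold. DKK2 differed 16.6-fold and 11.6-fold within the groups and 1.79-fold between their means. NOTUM had 0.674 and 0.384 CPM in the 1797 libraries and 0.293 and 0.203 CPM in the control libraries, so the groups did not overlap, as for 12.6% of genes in that direction. Its log2 fold change was 1.05 ± 0.48 (SE), with an edgeR adjusted p of 0.9998.

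Within the mesenchymal pool, 7 of the 9 genes passed the filter, all but DKK1 and SFRP5. Again edgeR called 0, against 0% of 13653 genes, with 1 at an unadjusted p under 0.05 (4.42% of genes), and DESeq2 called 0 (0.352% of genes). Of the 7, 1 was higher and 6 lower, with a median log2 fold change of -0.39 against -0.02 over all genes.

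**Figure D4:**
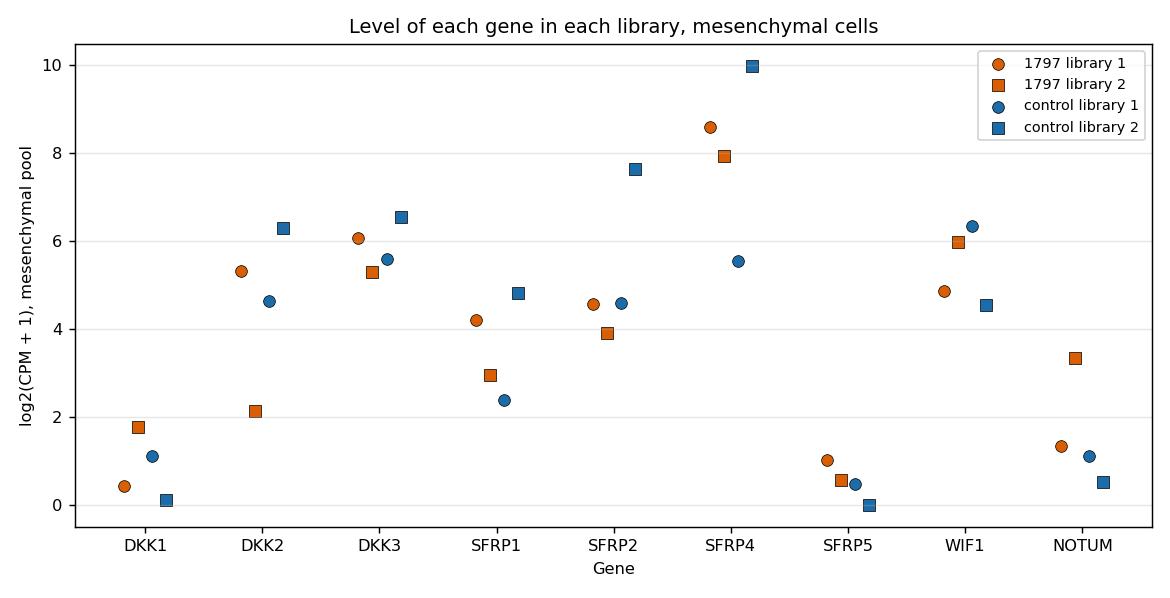
Level of the 9 genes in the mesenchymal pool, y axis log2(CPM + 1). Each point is a library, orange for peptide 1797 and blue for control, circles for library 1 and squares for library 2. The groups overlap for SFRP4, SFRP1, DKK2, DKK3 and WIF1, as they do for DKK1, and do not for SFRP2, NOTUM and SFRP5, the last with 14 UMIs in all.

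SFRP2 in the pool was at 22.7 and 14.0 CPM in the 1797 libraries and at 23.1 and 199 CPM in the control libraries. Both 1797 libraries were below both control libraries, as for 19.5% of genes, but control library 1 lay only just above 1797 library 1. The log2 fold change was -2.55 ± 0.92, with an unadjusted p of 0.0331 and an adjusted p of 0.966 by edgeR. Without control library 2 it was -0.31.

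NOTUM in the pool was at 1.55 and 9.15 CPM in the 1797 libraries and at 1.15 and 0.44 CPM in the control libraries. Both 1797 libraries were above, as for 15.3% of genes, with 18 and 19 UMIs against 3 and 5. Of the 19 UMIs of 1797 library 2, 7 lay in 1 cell and 10 in 4 chondrocytes. The log2 fold change was 2.87 ± 1.17, with an unadjusted p of 0.0504 and an edgeR adjusted p of 0.966, and it was 1.21 without 1797 library 2. The summed level of the 7 chondrocyte markers moved with it: 4851 and 13132 CPM in the 1797 libraries and 638 and 1376 CPM in the control libraries, with 6 of the 7 markers separated the same way. Its part in the NOTUM difference was not tested.

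SFRP4 in the pool was at 384 and 244 CPM in the 1797 libraries, and both values lay between the control libraries, at 45.4 and 1012 CPM. Its log2 fold change was -0.73 ± 1.15 and turned to 2.78 without control library 2. The 6 neutrophil markers summed to 829 CPM in the pool of that library, against 21.7 to 113 CPM in the other 3. Fibroblast-like stromal cells were 65 of the 686 and 5 of the 74 pool cells of the 1797 libraries. They were 2 of the 136 and 114 of the 323 pool cells of the control libraries. The part of either in the SFRP4 difference was not tested. DKK2 in the pool was at 38.9 and 3.37 CPM against 23.9 and 78.2 CPM, with a log2 fold change of -1.18 ± 0.94. WIF1 was at 27.96 and 62.2 CPM against 80.0 and 22.5 CPM, and the groups overlapped.

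**Figure D5:**
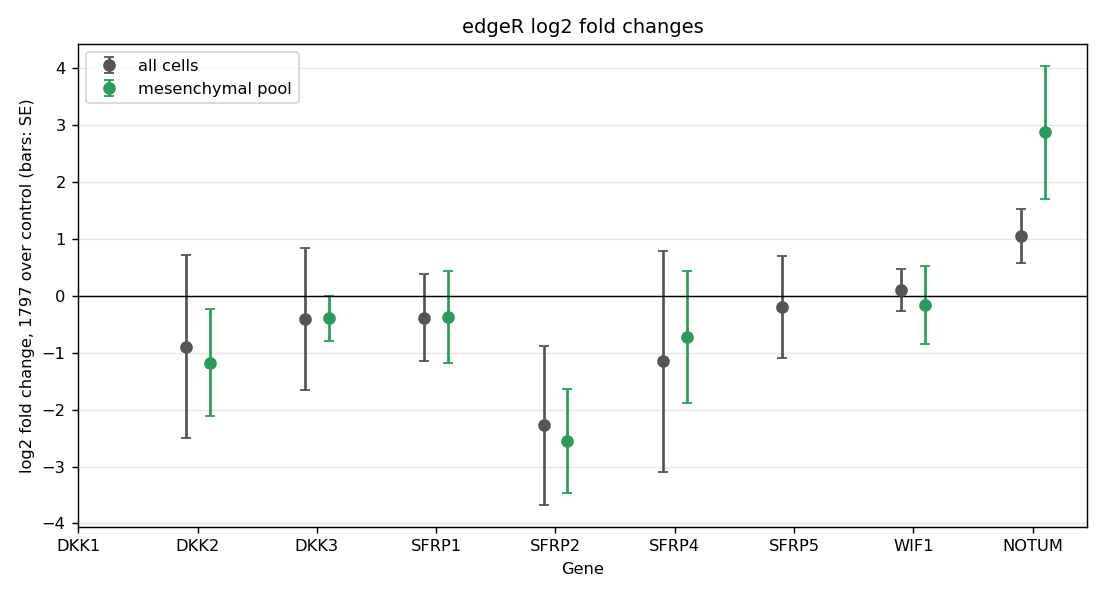
edgeR log2 fold change of peptide 1797 over control (y axis) for each gene that passed the filter (x axis), over all cells in grey and in the mesenchymal pool in green. Bars are standard errors. SFRP2 is lowest and NOTUM highest in both, and none passed the adjusted threshold.

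Across the 11 classes tested, 27 pairs of a gene and a class passed the filter and edgeR called 0 of them, against 0.00254% of all genes and classes. There were 2 with an unadjusted p under 0.05 (5.29% of all), SFRP2 in the pool and SFRP2 in macrophages, and DESeq2 called 0 (0.314% of all). In macrophages the log2 fold change of SFRP2 was 1.55 ± 0.57, with an edgeR adjusted p of 0.516, and 9.51% of genes in macrophages had an unadjusted p under 0.05. Without 1797 library 2, which held 108 of the 128 UMIs of its group, it was 0.68.

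In 10 of the 27 pairs the libraries of the groups did not overlap, with both 1797 libraries above in 7 and below in 3, against 14.4% and 20.2% of all genes and classes. Besides SFRP2 and NOTUM in the pool and SFRP2 above in macrophages (18% of genes there), WIF1 was above in B cells, T cells and plasmacytoid dendritic cells. Its level in T cells was 2.00 and 1.26 CPM against 1.19 and 0.95 CPM, and in B cells 2.17 and 1.34 CPM against 0.80 and 1.28 CPM. Both were above the controls as 15.6% and 14.4% of genes were, and 17.8% in plasmacytoid dendritic cells. SFRP1 was above in T cells, at 1.12 and 1.64 CPM against 1.10 and 0.95 CPM, and in neutrophils, at 2.87 and 1.57 CPM against 1.11 and 0.96 CPM (7.11% of genes). It was below in B cells (24.7% of genes), and DKK3 was below in macrophages, at 0.47 and 0.69 CPM against 1.29 and 1.40 CPM (25.1% of genes). None of these 10 passed the adjusted threshold of edgeR. NK or cytotoxic T cells, erythroid cells and osteoclasts had none of the 9 genes past the filter.

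The rest of the pathway was read from a list of 81 genes, 80 of them in the matrices, with ligands, receptors, other antagonists, intracellular relay and target genes. Over all cells 73 passed the filter and edgeR called 0, with 2 at an unadjusted p under 0.05 (1.59% of all genes). DESeq2 called 0 there (0.126% of all genes). In the pool 60 passed, 27 higher and 33 lower, with a median log2 fold change of -0.04. There edgeR and DESeq2 called 0 (0% and 0.352% of all genes), with 4 at an unadjusted edgeR p under 0.05 (4.42% of all genes). These 4 were FZD4, TRABD2B, FRZB and LEF1, named after their values were seen, and each had an edgeR adjusted p of 0.966. FZD4, a Frizzled receptor, was at 30.4 and 26.0 CPM against 7.70 and 11.3 CPM, with a log2 fold change of 1.56 ± 0.30. The pool held 3.34% of its counts. It stood at 43.7 CPM in pericytes or smooth muscle, 8.70 CPM in stromal cells and 165 CPM in endothelial cells. The part of the cell mix in its difference was not tested.

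Of the other antagonists and feedback inhibitors, 10 of 15 passed in the pool, 4 higher and 6 lower. TRABD2B, a membrane protease that inactivates WNT, was at 13.2 and 66.0 CPM against 9.62 and 4.53 CPM, and it was highest in chondrocytes, at 169 CPM. FRZB, the SFRP-like antagonist of cartilage, was at 11.4 and 48.2 CPM against 8.85 and 4.53 CPM, also with 123 CPM in chondrocytes. SOST, which encodes sclerostin, had 11 UMIs in all. ZNRF3, which removes Frizzled from the cell surface, was at 60.0 and 97.8 CPM against 151 and 62.3 CPM, and KREMEN1, a DKK receptor, at 18.8 and 32.3 CPM against 13.9 and 21.9 CPM.

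Of the ligands and their secretion genes, 11 of 21 passed in the pool, 5 higher and 6 lower. WNT5B had the most counts, at 97.4 and 81.4 CPM against 90.8 and 131 CPM. Of the receptors and R-spondins 19 of 23 passed, 7 higher and 12 lower, and ROR2, a WNT5A receptor, was at 144 and 116 CPM against 112 and 259 CPM. Of the relay 13 of 14 passed, 6 higher and 7 lower. Of the targets 7 of 8 passed, 5 higher and 2 lower, and MYC and CCND1, with the most counts, overlapped between the groups. MYC was at 198 and 162 CPM against 164 and 116 CPM, and CCND1 at 162 and 109 CPM against 114 and 89.0 CPM. LEF1 was at 99.2 and 106 CPM against 73.9 and 43.7 CPM, with a log2 fold change of 0.83 ± 0.32 and an edgeR adjusted p of 0.966. LEF1 too was highest among the named classes in chondrocytes, at 420 CPM, and the part of the chondrocyte markers in these differences was not tested.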

How the data were processed

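Single-cell 3′ libraries of regenerated pig bone were analysed, 2 per group, grouped by sample title. The authors deposited unnormalized counts of UMIs for each gene and cell barcode. Their processing notes name Cell Ranger 5.0.0 and Sscrofa11.1, and the version is 7.0.1 per the file headers. Whether intronic reads were counted is not given in the sources used here. Further control samples named by the series were not analysed here.

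Barcodes with at least 200 genes and under 20% mitochondrial counts were kept and 1798 Scrublet doublets (scanpy 1.11.5, expected rate 0.1) removed. Leiden clustering (igraph 0.11.9, resolution 1.0, 2000 variable genes, 30 components, 15 neighbours) was followed by division of mesenchymal clusters at 0.5. Clusters were named from marker lists, and those with under 3 raised markers, mixed markers or very low depth without enough leading markers stayed unnamed. Counts were summed per library and class and tested with edgeR 4.0.16 (TMM, filterByExpr, quasi-likelihood, R 4.3.3) where every library had at least 20 cells of the class. DESeq2 1.42.0 was an alternative. The edgeR test was also tried on counts simulated from these data. Over all cells it recovered 38 of 99 simulated 4-fold changes, with 11 false calls. In the mesenchymal pool it recovered 76 of 97, with 4 false calls, and in T cells 91 of 99, with 5. The simulated spread followed the trend over all genes, so these rates may not hold for genes with a wider spread. In the pool SFRP4 and SFRP2 differed 22.3-fold and 8.6-fold between the control libraries. Where 0 UMIs were counted, the limit given is 3 counts of the class total, for counting error only. Library totals are in the report.

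All 9 genes were named, with pathway genes that passed a test or, with none, up to 3 per group with the most mesenchymal counts, and the 5 most similar genes. The members and lists were chosen with earlier results of these data known. Alternatives were RLE size factors, DESeq2, no filter on low counts, a replicate block, leaving out single libraries, keeping doublets, requiring 500 genes and at most 10% mitochondrial counts, other clustering resolutions, thinning to 3000 UMIs, and sums without neutrophils and erythroid cells.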

Additional observations from a re-analysis of the deposited data

Results flagged for a closer look

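The log2 fold change of SFRP1 was 0.42 in T cells and 1.25 in neutrophils, where both 1797 libraries were above both control libraries, and -0.985 in B cells, where both were below. The log2 fold change of SFRP2 was 1.55 in macrophages and -2.55 in the mesenchymal pool, with the libraries separated in opposite directions. Without 1797 library 2 the macrophage value was 0.68, and without control library 2 the pool value was -0.31. These differences between classes were not tested, and none of the 5 single values passed the adjusted threshold of edgeR.

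Barcodes with under 200 genes, which entered no comparison, held 6 SFRP4 UMIs and 4 WIF1 UMIs in 1797 library 1, above the 3 counts that a count of 0 allows. These are 5.08 and 3.39 CPM of such barcodes. Control library 2 had 1 SFRP4 UMI there, at 13.9 CPM, and the remaining 2 libraries had 0 of either gene.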

How the results depend on the processing

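No member was called over all cells under any of the 12 alternatives run. In the tested classes edgeR called 1 member without the filter on low counts, SFRP4 in osteoclasts, which rests on 28 UMIs, 26 of them from control library 2 and 0 from control library 1. Pathway genes called in the tested classes numbered 1 with DESeq2 (FZD5 in plasmacytoid dendritic cells), against 0.314% of all genes and classes, and 4 without the filter. The share of all genes called without the filter is not given here, so the calls made without it have no background to be set against.

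Whether replicate numbers pair the samples cannot be told from 2 pairs. Across genes, deviations of same-numbered libraries from their group means correlated at -0.309 over all cells and -0.015 in the mesenchymal pool. The correlation lay between -0.109 and 0.067 in 9 other classes and was 0.412 in neutrophils. With the replicate block, 0 members and 0 pathway genes were called. The crossed replicate block, chosen after seeing the data, called 0 members and 0 pathway genes.

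The share of SFRP4 counts in fibroblast-like stromal cells was 2.67% and of DKK3 8.46% with finer sub-clustering, because the SFRP4-rich cells then lost that name. The share of SFRP2 counts there ranged from 13.02% to 75.2% with 1 library left out, lowest without control library 2. Thinned to 3000 UMIs, the share of mesenchymal cells with a UMI fell from 0.492% to 0% for DKK1 and from 40.7% to 14.3% for DKK3. It fell from 14.4% to 4.17% for SFRP1 and from 0.738% to 0% for SFRP5. The other members fell too, within the SD between libraries, such as SFRP4 from 32.8% to 17.9% and SFRP2 from 12.4% to 4.66%. In monocytes the share fell from 0.424% to 0% for DKK2, from 1.22% to 0.095% for DKK3 and from 3.77% to 1.0% for WIF1. Log2 fold changes of single members kept their side of the threshold, but the sign of SFRP4, SFRP1, DKK3 and WIF1 turned in the pool with some library left out, SFRP4 to 2.78, SFRP1 to 1.58 and DKK3 to 0.16 without control library 2, and WIF1 to 1.02 without control library 1. With the replicate block SFRP4 was 0.49. With 2 libraries per group and few mesenchymal cells in 2 libraries, depth limits DKK1, SFRP5 and NOTUM most.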
